A study of Mus musculus with 4 samples.

Results

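Müller glia marker genes were followed in RNA from sorted retinal microglia. The 8 genes, Glul, Rlbp1, Clu, Dkk3, Slc1a3, Aqp4, Gfap and Vim, were taken by gene symbol from the deposited table of 15586 genes. All 8 were listed once there and all are reported whatever their values. The list itself was chosen with earlier results of these data known. Müller glia are the radial glia that span the retina; they clear glutamate from around the photoreceptors and bipolar cells, return it to neurons as glutamine, move water and potassium, hand retinoids back to cones, and build up intermediate filaments when the retina is injured. They were not the cells sorted here, so these transcripts show what the libraries of sorted microglia held of genes best known from a neighbouring cell. Glul, Slc1a3, Clu and Vim are not confined to Müller glia and can also be transcribed by other cells, immune cells among them.

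Both groups were adult mice aged 2 months with 1 Cx3cr1CreER allele, a tamoxifen-activated Cre driven from the locus of a receptor that microglia and monocytes share, and loxP-flanked alleles of Map3k7, which encodes TAK1, a kinase between cytokine and innate immune receptors and NF-kB. The TAK1 knockout group (2 libraries) received intraperitoneal tamoxifen at 75 mg/kg on 5 consecutive days, and the control group (2 libraries) received corn oil on 5 days, so deletion and drug cannot be told apart. The genotype label of the knockout samples reads Tak3fl/fl and that of the controls Tak1fl/fl, whereas the protocol gives Tak1fl/fl for both. Each library was amplified from 200 EYFP-positive cells. The labels do not state whether each library was from a different animal, so the spread between them, on which every p-value rests, may be technical.

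Values were FPKM, fragments scaled to transcript length and library size, which can be compared between genes; the depth of the libraries is unknown. FPKM summed to 823229 and 812009 in the knockout libraries and 969700 and 863652 in the control libraries, and 6055 and 5628 genes against 4481 and 3777 genes reached 1 FPKM. The targeted gene, Map3k7, was listed at 0.02 and 0.08 FPKM in knockout libraries and at 0.03 and 0 FPKM in control libraries, too low in both groups to check the labels. All 15 microglia markers examined were in the table; C1qb, a complement subunit gene of microglia, read 7990 and 3146 FPKM in knockout libraries and 1897 and 835 FPKM in control libraries. Of these 15, 9 had both knockouts above both controls and 2, Aif1 and Cx3cr1, had both below. Of all 7823 genes tested, 27.8% lay above and 11.4% below in this way. Aif1, which encodes IBA1, read 1246 and 1611 FPKM in knockouts and 2389 and 2318 FPKM in controls, and Cx3cr1, the fractalkine receptor, read 88.2 and 73 FPKM in knockouts and 101 and 88.9 FPKM in controls.

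As deposited, 1 of the 8 members, Glul, had both knockout libraries above both controls, and 1, Vim, had both below. Of the 7823 genes tested, those with a mean of at least 1 FPKM, 27.8% lay above and 11.4% below in this way, so neither count stands out, and the Glul groups overlapped after median ratio scaling. The DNA around the annotated starts of Glul and Vim is printed because they are the members with separate groups in the deposited values. Each window runs 5′ to 3′ on the gene's own strand, from 250 bases before the start to 50 bases after it (RefSeq, GRCm38.p6; chr1:153899679-153899978, plus strand, for Glul and chr2:13574061-13574360, plus strand, for Vim). Capitals mark matches, on either strand, to the TATA box TATAAA, the CCAAT box CCAAT, the GC box GGGCGG, the AP-1 site TGANTCA and the NF-kB site, taken as GGG and TTTCC with any 2 bases between them.
Glul: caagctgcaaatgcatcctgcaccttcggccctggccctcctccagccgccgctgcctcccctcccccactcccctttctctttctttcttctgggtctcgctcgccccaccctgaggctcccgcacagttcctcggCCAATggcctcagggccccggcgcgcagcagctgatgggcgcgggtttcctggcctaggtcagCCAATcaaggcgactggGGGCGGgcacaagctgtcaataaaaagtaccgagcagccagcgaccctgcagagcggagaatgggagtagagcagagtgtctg
Vim: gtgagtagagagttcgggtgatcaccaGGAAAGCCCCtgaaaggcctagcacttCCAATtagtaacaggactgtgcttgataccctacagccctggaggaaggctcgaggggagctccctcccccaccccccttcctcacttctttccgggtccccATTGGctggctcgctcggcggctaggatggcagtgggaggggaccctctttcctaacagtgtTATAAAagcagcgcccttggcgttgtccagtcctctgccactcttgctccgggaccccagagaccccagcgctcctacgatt

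The Glul window held 2 CCAAT boxes, at -113 and -50 relative to the start, and a GC box at -33. The Vim window held a TATA box at -32, a CCAAT box on the sense strand at -196 and one on the opposite strand at -94, and a match to the NF-kB letters on the opposite strand at -223. No matched letters overlapped between motifs in either window, and neither window held the AP-1 letters. Of 32851 promoter windows of the same length, 37.4% held CCAAT, 35.7% the GC box, 13.6% the TATA box, 7.81% the AP-1 letters and 1.63% the NF-kB letters. NF-kB and AP-1 are transcription factors downstream of TAK1; a match of letters is a description and says nothing of binding. Windows were at hand for 5 of the 8 members.

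Glul had the highest FPKM of the members in 3 of the 4 libraries. It encodes glutamine synthetase, the enzyme that turns glutamate and ammonia into glutamine (chromosome 1, 153899929 to 153909723, plus strand, GRCm38.p6). It read 774 and 599 FPKM in the knockout libraries, against 84.6 and 318 FPKM in the control libraries. Both knockout libraries stood above both controls, and the controls differed from each other 3.76-fold, the knockouts 1.29-fold. The means were 687 ± 124 FPKM in knockouts and 201 ± 165 FPKM in controls (SD, n = 2 each), a ratio of 3.41. On the log2(FPKM + 1) scale the difference was 2.05 ± 0.80 (SE), knockout minus control, with a 95% interval of 0.09 to 4.0. In limma's moderated test it had an unadjusted p of 0.043 and did not pass after Benjamini-Hochberg adjustment over all genes tested (limma adjusted p = 0.636).

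The level of Glul relative to other genes depended on the scaling. Median ratio scaling, which evens out genes present in every library, gave 520 and 458 in the knockouts against 92.3 and 508 in the controls, and the groups then overlapped. With each library rescaled to the same sum the values were 815 and 640 against 75.6 and 319, with no overlap. Without control 1 the log2 difference was 1.10, and without control 2 it was 2.99. The first bases of Glul overlap Teddm2, a gene on the opposite strand, and a library that does not mark strand cannot tell such reads apart.

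Slc1a3 encodes GLAST, the transporter by which Müller glia take up glutamate (chromosome 15, 8634124 to 8710807, minus strand). It read 26 and 8.06 FPKM in the knockout libraries and 20.4 and 0.57 FPKM in the control libraries. Knockout 1 and control 1 were alike and control 2 was near the floor, so the groups overlapped. The log2 difference of 1.43 ± 1.92 (SE) did not pass (limma adjusted p = 0.718), and it was -0.46 without control 2. Glul and Slc1a3 act in turn on the same glutamate, yet their orders over the libraries differed: control 1 was the lowest library for Glul and the second highest for Slc1a3.

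The other glutamate and glutamine genes were mostly near the floor or high in single libraries. Of 14 listed, 13 were in the table and 9 reached a mean of 1 FPKM and were tested; 0 were called, 2 had both knockout libraries above both controls and 0 below, where all genes tested gave 27.8% above and 11.4% below. Glud1, glutamate dehydrogenase of mitochondria, read 50.3 and 54.8 FPKM in knockouts and 0.24 and 5.96 FPKM in controls (limma adjusted p = 0.629). Slc38a1, a glutamine carrier, read 0.56 and 42.9 FPKM in knockouts and 0.05 and 0.09 FPKM in controls. Slc1a2, the glutamate transporter GLT-1, also listed here as an astrocyte marker, read 0.03 and 0.02 FPKM in knockouts and 0.03 and 58.3 FPKM in controls.

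Rlbp1 encodes CRALBP, the retinaldehyde-binding protein of Müller glia and of the pigment epithelium (chromosome 7, 79374865 to 79392250, minus strand). It read 56.8 and 0.35 FPKM in the knockout libraries, against 13.1 and 0.11 FPKM in the control libraries. It was present in 1 library of each group and near the floor in the other, a gap of 162-fold between the knockouts and 119-fold between the controls. The log2 difference was 1.16 ± 2.46 (SE; limma adjusted p = 0.839), and it turned to -1.55 without knockout 1 and -0.67 without control 2. Of the pigment epithelium markers, Rpe65, the retinoid isomerase, was listed at 0 in both knockouts and in control 2 and read 9.39 FPKM in control 1.

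Among 12 visual cycle genes, 11 were in the table and 7 were tested; 0 were called, 4 had both knockouts above both controls and 0 below, beside 27.8% and 11.4% of all genes tested. Rdh12, a retinol dehydrogenase of photoreceptors, read 41.3 and 143 FPKM in knockouts and 0.17 and 0.38 FPKM in controls (limma adjusted p = 0.559). Rdh10, a retinol dehydrogenase found in Müller glia and pigment epithelium, read 14.6 and 76.2 FPKM in knockouts and 0.06 and 0 FPKM in controls (limma adjusted p = 0.579). Rdh10 was higher in the knockout library in which Rlbp1 was near the floor, so these 2 retinoid genes of Müller glia did not share an order over the libraries. Rbp3, the retinoid carrier of the space around the photoreceptors, read 25.5 and 11 FPKM in knockouts and 0.40 and 0.39 FPKM in controls. Dhrs3, a retinal reductase, read 181 and 58.8 FPKM in knockouts and 6.36 and 104 FPKM in controls.

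Dkk3 and Clu encode secreted proteins. Dkk3, a divergent member of the Dickkopf family of Wnt modulators that is abundant in Müller glia (chromosome 7, 112116019 to 112159482, minus strand), read 75.3 and 0.62 FPKM in the knockout libraries and 12.9 and 2.40 FPKM in the control libraries. As with Rlbp1, knockout 1 held the most and knockout 2 very little; the knockouts differed 121-fold and the groups overlapped. The log2 difference was 0.69 ± 2.29 (SE; limma adjusted p = 0.909). It was -2.09 without knockout 1, -0.33 without control 2 and -0.26 after quantile normalization.

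Clu, clusterin, an extracellular chaperone and lipoprotein component (chromosome 14, 65968483 to 65981548, plus strand), read 87 and 3.32 FPKM in the knockout libraries and 48.6 and 81.9 FPKM in the control libraries. Knockout 2 was the low library, and the other 3 lay between 48.6 and 87 FPKM. The log2 difference was -1.72 ± 1.74 (SE; limma adjusted p = 0.698), and it was 0.46 without knockout 2.

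Of the other Dickkopf and Wnt co-receptor genes, 6 of 10 were in the table and only Ctnnb1, beta-catenin, was tested, at 46.6 and 63 FPKM in knockouts and 19.6 and 44.1 FPKM in controls (limma adjusted p = 0.727). Of 8 lipoprotein handling genes, 6 were tested; 0 were called, 3 had both knockouts above both controls and 0 below (all genes tested, 27.8% and 11.4%). Apoe, the main apolipoprotein of glia, read 9190 and 1647 FPKM in knockouts and 4904 and 4968 FPKM in controls, and so was lowest in knockout 2, where Clu was also lowest. Vldlr, a lipoprotein receptor, read 15.4 and 27.4 FPKM in knockouts and 0.05 and 0.34 FPKM in controls (limma adjusted p = 0.623).

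Vim encodes vimentin, the intermediate filament protein of Müller glia and of many migrating and immune cells (chromosome 2, 13574311 to 13582826, plus strand). It read 1.78 and 5.80 FPKM in the knockout libraries, against 87.8 and 29.1 FPKM in the control libraries. Both knockouts lay below both controls, and this order also held with libraries rescaled to the same sum and with median ratio scaling. The means were 3.79 ± 2.84 FPKM in knockouts and 58.5 ± 41.5 FPKM in controls (SD, n = 2 each). The log2 difference was -3.57 ± 1.53 (SE), with a 95% interval of -7.31 to 0.16, an unadjusted p of 0.058 and a limma adjusted p of 0.667. It lay between -4.75 and -2.72 under the 15 alternatives. With groups that did not overlap, only the 3 scalings could have turned its sign. It was -4.30 after median ratio scaling, -3.43 with libraries rescaled to the same sum and -4.75 after quantile normalization. Only 1.78% of the genes tested had a more negative difference.

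Gfap, the filament protein that Müller glia make under stress and astrocytes make at rest (chromosome 11, 102887336 to 102897200, minus strand), was listed at 0 in both knockout libraries and in control 2, and at 0.02 FPKM in control 1. With values this close to 0 in both groups it was not tested. Many genes of these libraries were at the floor in some of them, so this does not show that Gfap was silent. Of 12 filament partner genes, 9 were in the table and 3 were tested, with 0 called; Nes, nestin, read under 0.1 FPKM in every library, and Krt18, a keratin, read 82.7 and 0.71 FPKM in knockouts and 0.05 and 0 FPKM in controls.

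Aqp4 encodes the water channel of glial endfeet (chromosome 18, 15389394 to 15410982, minus strand). It read 0.02 and 17.5 FPKM in the knockout libraries and 0 and 0.03 FPKM in the control libraries. Of the genes tested, 32.1% held over 90% of their summed FPKM in 1 library. For Aqp4, knockout 2 held 99.7%, and the gene passed the filter on low values through that library alone. The log2 difference was 2.10 ± 1.91 (SE; limma adjusted p = 0.698). Without knockout 1 it was 4.19 and passed (limma adjusted p = 0.0466), in a fit that called 697 genes higher and assumes that the lone knockout varies like the controls. Kcnj10, the potassium channel Kir4.1 that accompanies Aqp4 at endfeet, read 0.01 and 0 FPKM in knockouts and 0.01 and 0.02 FPKM in controls. Of 10 water and potassium channel partners, 8 were in the table and 5 were tested, with 0 called; Dmd and Dag1, which anchor Aqp4 at the membrane, were also highest in knockout 2, at 0.09 and 16.6 FPKM for Dmd and 0.01 and 19.2 FPKM for Dag1 in knockouts, against 0.01 and 0.02 FPKM and 1.16 and 0.05 FPKM in controls.

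**Figure D1:**
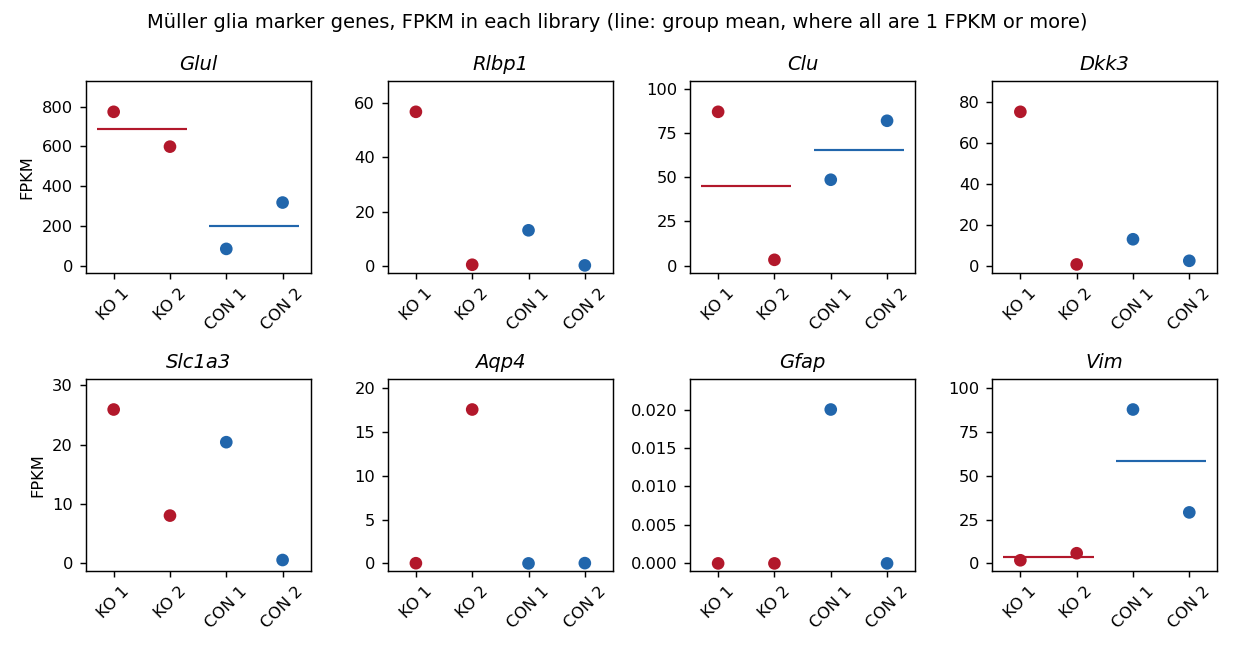
FPKM of each marker gene (vertical axis, linear, own scale per gene) in the knockout libraries (red, KO) and the control libraries (blue, CON), with a line at the group mean where all values reach 1 FPKM. Glul lies higher and Vim lower in both knockout libraries, Rlbp1 and Dkk3 are highest in KO 1, Aqp4 exceeds 0.03 FPKM in KO 2 only, and Gfap stays at or below 0.02 FPKM.

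Over all 8 members, the 1 above and the 1 below are 12.5% each, and the groups of the other 6 overlapped. In the limma fit 0% of genes were called in either direction (0 of 7823 higher and 0 lower), and 0 of the 7 members tested. At an unadjusted p under 0.05 there were 475 higher genes (6.07%) and 127 lower genes (1.62%), and Glul was the 1 member among them. The median log2 difference of the 7 tested members was 1.16, beside 0.94 for all genes tested. The shift of 0.94 belonged to the lower genes: over the 1177 genes averaging 100 FPKM or more, the median was -0.11. Among these 1177, Glul lay above 89.2%, and among all genes tested above 70.9%. For a single gene, an exact two-sided permutation test of 2 against 2 libraries cannot go below p = 0.333.

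**Figure D2:**
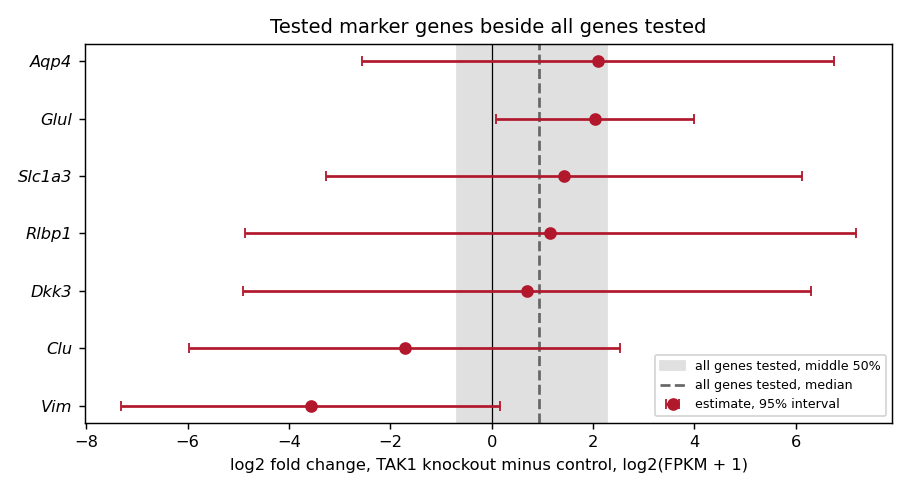
Log2 difference, knockout minus control, on the log2(FPKM + 1) scale (horizontal axis) for the 7 tested marker genes, with 95% intervals from limma, over the middle 50% (grey) and median (dashed, 0.94) of all genes tested. The interval of Glul (0.09 to 4.0) lies just above 0 before adjustment, and those of the other 6 include 0.

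Summed over all 8, the members read 1021 and 635 FPKM in the knockouts and 267 and 432 FPKM in the controls, or 0.124% and 0.0782% of all FPKM against 0.0276% and 0.05%. After median ratio scaling the sums were 685 and 485 in the knockouts and 292 and 691 in the controls, and they overlapped. Glul made up 75.8% and 94.4% of that sum in the knockouts and 31.6% and 73.6% in the controls. In control 1 Vim was the most abundant member, with 32.8% of the sum. Without Glul the sum was 247 and 35.7 FPKM in the knockouts and 183 and 114 FPKM in the controls, and the groups overlapped. Only Glul, Clu and Vim reached 1 FPKM in all 4 libraries.

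Rlbp1, Dkk3 and Slc1a3, grouped after their values were seen, together read 158 and 9.03 FPKM in the knockouts and 46.4 and 3.08 FPKM in the controls. Each of the 3 was higher in knockout 1 than in knockout 2 and higher in control 1 than in control 2. Aqp4 had the opposite order in the knockouts. Glul was also higher in knockout 1 than in knockout 2, but lower in control 1 than in control 2. In knockout 2, Glul read 599 FPKM, Slc1a3 8.06 FPKM, Dkk3 0.62 FPKM and Rlbp1 0.35 FPKM. The libraries share no labelled batch beyond their group.

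Further Müller glia genes also went both ways. Of 18 listed, 17 were in the table and 11 were tested; 0 were called, 4 had both knockouts above both controls and 1 below (all genes tested, 27.8% and 11.4%). Cd9, a tetraspanin that microglia also make, read 2837 and 2075 FPKM in knockouts and 1615 and 1282 FPKM in controls (limma adjusted p = 0.662). Dbi, the acyl-CoA binding protein, read 589 and 953 FPKM in knockouts and 1129 and 839 FPKM in controls, with overlap. Prdx6, an antioxidant enzyme, read 2.52 and 0.21 FPKM in knockouts and 27.3 and 59.9 FPKM in controls (limma adjusted p = 0.612). Sox9 and Sox2, transcription factors that Müller glia make, were named after their values were seen. Sox9 read 1.15 and 0.02 FPKM in knockouts and 0.99 and 0.52 FPKM in controls. Sox2 read 0 and 20.2 FPKM in knockouts and 0.03 FPKM in each control, and so was highest in knockout 2, as Aqp4 was. Such patterns were common: 32.1% of the genes tested held over 90% of their summed FPKM in 1 library. In the same list, Gpr37 read 29.1 and 0.04 FPKM in knockouts and 0 in controls. Mlc1 read 14.1 FPKM in control 2 and 0 elsewhere.

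Of 14 gliosis genes, which glia switch on after injury, 11 were in the table and 8 were tested; 0 were called, 3 had both knockouts above both controls and 0 below (all genes tested, 27.8% and 11.4%). Cd44, the hyaluronan receptor, which immune cells also make, read 20.4 and 36.3 FPKM in knockouts and 2.12 and 3.25 FPKM in controls (limma adjusted p = 0.698). Stat3, the transcription factor of cytokine receptors, read 9.46 and 11.3 FPKM in knockouts and 2.67 and 0 FPKM in controls (limma adjusted p = 0.698). Mt1, a metallothionein, was nearly level, at 1010 and 1122 FPKM in knockouts and 951 and 1154 FPKM in controls. Cntf, ciliary neurotrophic factor, read 118 FPKM in control 2 and at most 0.06 FPKM in the other 3 libraries. Of 8 astrocyte markers, 5 were in the table and Slc1a2 was the 1 tested; Aldh1l1, Gja1, S100b and Fgfr3 read under 0.1 FPKM in every library.

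Other cell types of the retina were also represented, and their part in the member values was not tested. The 14 rod markers summed to 6430 and 9414 FPKM in the knockouts and 2277 and 3346 FPKM in the controls; none was at 0 in any library, and 11 of 14 had both knockouts above both controls, as 27.8% of all genes tested did. The 9 bipolar cell markers summed to 907 and 760 FPKM in knockouts and 4.38 and 180 FPKM in controls, of which Pcp2, a bipolar cell protein, gave 647 and 572 FPKM against 3.28 and 95.7 FPKM, while Vsx1 and Cabp5 read under 0.1 FPKM throughout. The 9 monocyte markers, of which 7 were in the table, summed to 2543 and 1897 FPKM in knockouts and 10183 and 16210 FPKM in controls. Most of this sum was Lyz2, a lysozyme gene, at 2484 and 1894 FPKM against 9227 and 14880 FPKM. Ccr2, the chemokine receptor of monocytes, read 1.81 and 0.59 FPKM against 316 and 151 FPKM. Of the 7, 3 had both knockouts below both controls, as 11.4% of all genes tested did. As deposited, the rod and bipolar sums were higher in the group where Glul was higher, and the monocyte sum was higher in the group where Vim was higher. Cone markers summed to 124 and 403 FPKM in knockouts and 78 and 175 FPKM in controls, with overlap. Of the 6 tested, 2 had both knockouts above both controls and 0 below (all genes tested, 27.8% and 11.4%). Opn1mw read 36.7 and 272 FPKM in knockouts and 0.66 and 0.81 FPKM in controls. Pde6h was highest in control 2, at 126 FPKM, and Arr3 in control 1, at 71.4 FPKM. Amacrine and ganglion cell markers summed to 131 and 88.6 FPKM against 28 and 27.2 FPKM. Endothelial markers summed to 15.9 and 8.32 FPKM in knockouts and 0.05 and 0.50 FPKM in controls, nearly all of it in knockouts from Flt1, at 15.9 and 8.05 FPKM, while Pecam1, Cdh5, Tek and Kdr read at most 0.45 FPKM. Pericyte markers summed to 156 and 29.4 FPKM against 0.18 and 1.93 FPKM. Nearly all of it in knockouts was Vtn, at 96.1 and 29.3 FPKM, and Rgs5, at 60.2 and 0.10 FPKM. Cspg4 was at 0 in every library, and Pdgfrb read 0.09 and 0 FPKM in knockouts and 0.03 and 1.71 FPKM in controls. Pigment epithelium markers, of which Rlbp1 is one, summed to 56.8 and 0.38 FPKM against 22.5 and 0.11 FPKM. The sum of the 15 microglia markers was also higher in the knockouts, at 42400 and 27780 FPKM against 17077 and 17957 FPKM. After median ratio scaling the rod sums were 4317 and 7192 in knockouts and 2485 and 5353 in controls, and the microglia sums 28466 and 21221 against 18639 and 28730, so both overlapped, while the bipolar and monocyte sums kept their order. In RNA of pooled cells, fewer cells of a type and less RNA per cell cannot be told apart.

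**Figure D3:**
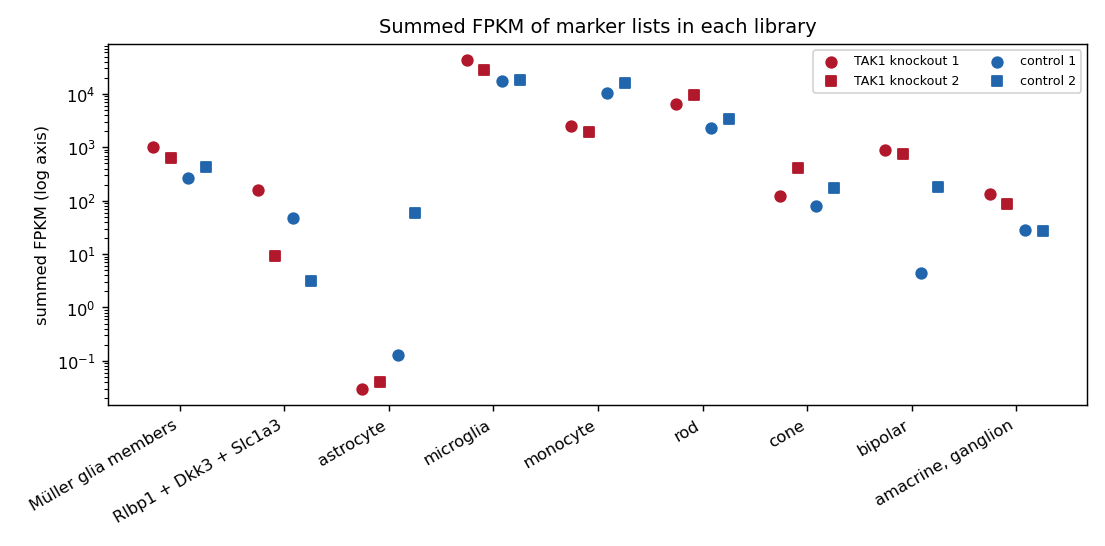
Summed FPKM (vertical axis, log scale) of the 8 members, of Rlbp1, Dkk3 and Slc1a3, and of marker lists of other cell types, in knockout (red) and control (blue) libraries; circles are number 1 and squares number 2 of each group. As deposited, the member, rod, bipolar and microglia sums are higher in both knockouts (the member, rod and microglia sums overlap after median ratio scaling). The monocyte sum, most of it Lyz2, is higher in both controls. Rlbp1, Dkk3 and Slc1a3 together are higher in number 1 of each group.

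The genes whose pattern lay nearest to the 3 most abundant members were found by Euclidean distance on log2(FPKM + 1) over the 4 libraries, among the genes tested. Nearest to Glul was Sag, rod arrestin, at a distance of 0.72 log2 units, where the median gene lay at 12.9. Sag read 722 and 572 FPKM in knockouts and 134 and 268 FPKM in controls. Next was Syngr1, a synaptic vesicle protein gene (distance 0.93), at 610 and 487 FPKM in knockouts and 55.3 and 218 FPKM in controls. Nearest to Clu were Lmo4 and Ttc14 (0.96 and 1.06), both low in knockout 2, at 1.37 and 7.35 FPKM. Nearest to Vim were Crebl2 and Atf4 (1.19 and 1.35); Atf4, the transcription factor of the integrated stress response, read 0.39 and 5.02 FPKM in knockouts and 48.4 and 24 FPKM in controls. With 4 libraries and 7823 genes such neighbours are a description only.

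**Figure D4:**
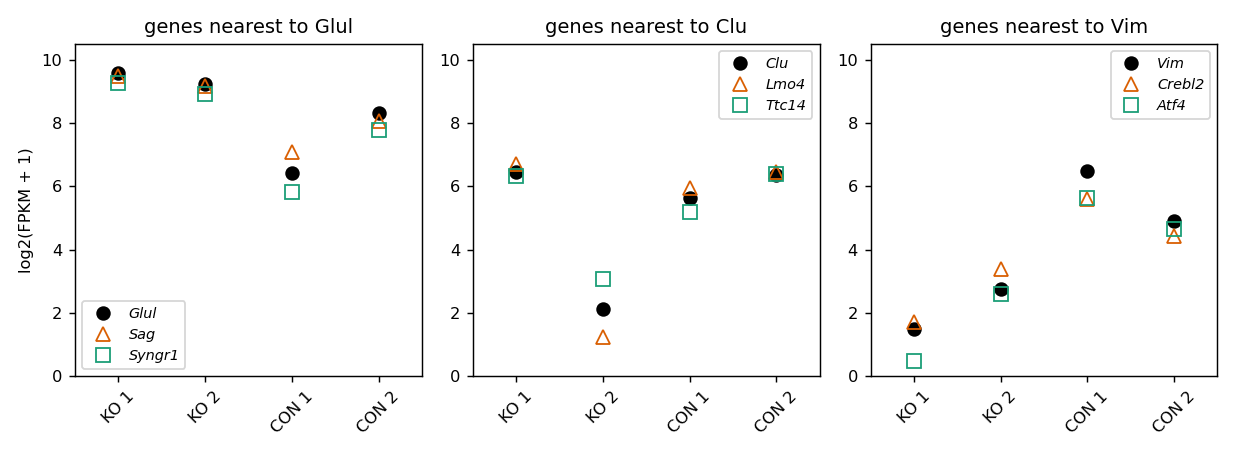
Log2(FPKM + 1) (vertical axis) in each knockout (KO) and control (CON) library for Glul, Clu and Vim (black) and the 2 genes nearest to each (open symbols). Sag and Syngr1 follow Glul, with their highest values in the knockouts and their lowest in control 1.

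**Figure D5:**
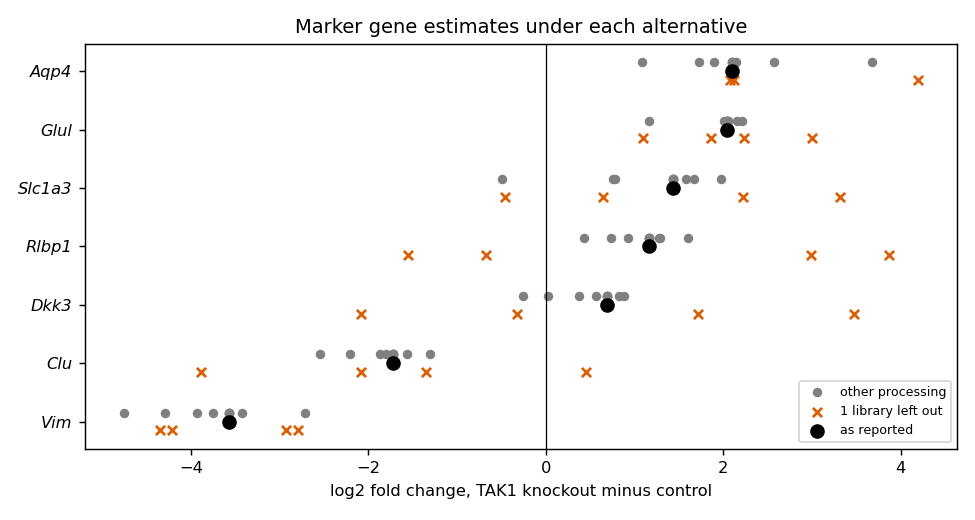
Log2 difference, knockout minus control (horizontal axis), of each tested marker gene as reported (black), under other processing (grey) and with 1 library left out (crosses). Glul stays above 0 and Vim below 0 in all 15 alternatives. Their groups did not overlap as deposited, so only the scalings could have turned these signs. Aqp4 stays above 0 in the 13 alternatives that kept knockout 2 and a filter it passed. Its sign there rested on knockout 2, at 17.5 FPKM against at most 0.03 FPKM in the other libraries. Slc1a3, Rlbp1, Dkk3 and Clu, whose groups overlapped, cross 0 in at least 1 alternative.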

How the data were processed

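RNA of 200 sorted cells per library was reverse transcribed and amplified by a SMART-seq protocol, per the labels' protocols. The authors deposited FPKM per gene, rounded to 2 decimals, with mm10 as genome build, per the submitters' processing notes; for the aligner, quantifier and annotation, the sources used here give no name. Columns were matched to samples by title. Coordinates and promoter sequences came from RefSeq (GRCm38.p6) and strands and overlaps from GENCODE.

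The 7823 of 15586 genes whose mean over the 4 libraries reached 1 FPKM were compared on log2(FPKM + 1), a scale that understates changes of low genes, by limma 3.58.1 in R 4.3.3 (two-sided, trended prior variance, Benjamini-Hochberg adjustment, threshold 0.05). The members, 18 gene lists and alternatives were chosen with earlier results of these data known. All members were named. Of each list, up to 3 genes with the smallest p and up to 2 with the highest mean were eligible. Added after their values were seen were Kcnj10, Nes, Sox9, Sox2, Gpr37, Aldh1l1, Gja1, Fgfr3, Vsx1, Cabp5, Aif1, Cx3cr1, Pecam1, Cdh5, Tek, Pdgfrb, Cspg4, Pde6h, Arr3 and Map3k7. Figures used matplotlib 3.10.9. Code was tested on simulated data. Some genes that the rule names are not reported here.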

Additional observations from a re-analysis of the deposited data

How the results depend on the processing

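Tried were 3 other pseudocounts (0.1, 0.5 and 5 FPKM), dropping the filter or raising it to 5 FPKM, 3 scalings, an untrended or robust prior variance, the replicate number as a block, and each library left out. Glul and Vim kept their direction in all 15, but their groups did not overlap as deposited, so only the 3 scalings could have turned it. With all 4 libraries kept, neither passed (limma adjusted p 0.374 to 0.761 for Glul and 0.495 to 0.761 for Vim). Genes called higher numbered 0 except for 2 after quantile normalization, 15 with the replicate block and 0 to 1306 with a library left out (697 without knockout 1 and 1306 without knockout 2). Genes called lower numbered 0 except for 3, 20 and 0 to 5 (4 and 5) in the same order. The block called no member. Same-numbered libraries did not deviate together across genes (Pearson's r = 0.017). This single correlation cannot show whether some genes shared a batch, and the labels do not say whether the numbers pair samples. Quantile normalization turned Dkk3 to -0.26 and Slc1a3 to -0.49. With a library left out, Clu ranged from -3.89 to 0.46, Dkk3 from -2.09 to 3.47, Rlbp1 from -1.55 to 3.87 and Slc1a3 from -0.46 to 3.32. The members' median ranged from -1.55 to 2.22 there and that of all genes from 0.64 to 1.38. With all 4 libraries kept, quantile normalization turned the members' median to -0.26. The all-gene median was 0.70 at a mean of 5 FPKM, 0.021 with no filter, 1.26 and 0.50 at pseudocounts of 0.1 and 5, 0.32 after median ratio scaling and 0.12 after quantile normalization. Median ratio scaling put the members' sum at a mean of 585 in knockouts and 491 in controls, against 828 and 350 as deposited. The causes were not tested.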
